A study of Mus musculus with 6 samples.

Results

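p53 and its target genes were examined in a mouse podocyte line (MPCs) through 10 genes chosen by name out of the 24469 loci of the deposited RNA-Seq table. The list holds Trp53, which encodes p53, its regulators Mdm2 and Mdm4, and the target genes Ccng1, Gadd45a, Perp, Zmat3, Phlda3, Trp53inp1 and Sesn2. Each symbol named a single locus, and all 10 passed the filter on low values. The 6 libraries formed 3 groups of 2, all exposed to 25 mM glucose for 12 h after 12 h in serum-free medium, and all from cells of passage 10 to 15. The HG group received no FGF1, whereas the other groups were pretreated for 1 h with 100 ng/mL of wild-type FGF1 (rFGF1WT) or of the mutant rFGF1ΔHBS, in which lysines of the heparan sulfate binding site are replaced. These conditionally immortalized cells were grown at 33 °C with 50 U/mL interferon gamma and differentiated for 10 days at 37 °C without it, the scheme used for podocyte lines that carry a heat-labile viral large T antigen, a protein that binds p53. None of the 6 libraries was at normal glucose, so an effect of high glucose itself cannot be read from them. The T antigen itself was not analysed here. The sources do not say whether the libraries of a group came from separate cultures, so the p-values measure only the spread between libraries, which may be technical.

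p53 is a transcription factor that is held at a low level by Mdm2, a ubiquitin ligase, and by its relative Mdm4. Stress signals such as DNA damage release p53 from this control, mostly at the level of the protein, and p53 then binds a pair of short DNA motifs and raises genes of cell cycle arrest, repair, metabolism and apoptosis. Many of these targets, Gadd45a and Sesn2 among them, also respond to other stress and growth factor pathways, and Mdm2 forms a feedback loop because it is itself a target.

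The p53 motif is shown first, for the genes of the list whose promoter windows held it. These were Ccng1 and Gadd45a, which rose with both proteins, and Trp53 and Mdm2, whose changes did not pass the test. Promoter sequences came from RefSeq (GRCm38.p6) and were available for 7 of the 10 genes, as 8 windows. No window was available for Perp, Zmat3 and Trp53inp1. The motif searched was the 10-base p53 consensus decamer, which reads the same on both strands, within 250 bases upstream of each start. Of all 32851 such windows 7.13% held it, as did 4 of the 8 windows of the list. In the lines that follow, capitals mark exact matches to the decamer, and near matches stay in lower case. The line of Cdkn1a, the best known p53 target, is given for reference because it holds a pair of decamers 12 bases apart. Such a pair, with a gap of 0 to 13 bases, was in 0.0639% of all windows and in none of the 8 windows. In the Cdkn1a line the 10 bases directly after the second decamer are an unmarked near match. The marked pair is thus not shown to be the site that p53 binds. A further promoter entry of Cdkn1a, at chr17:29093519-29093818, held no decamer within its 250 upstream bases. Sequences of 60 bases are printed 5′ to 3′ on the strand of the gene, and 30 bases for Gadd45a, where 1 annotated transcript starts further upstream.
Ccng1, chr11:40755437-40755496, minus strand, decamer starting 185 bases upstream: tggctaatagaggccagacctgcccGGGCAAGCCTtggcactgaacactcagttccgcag
Gadd45a, chr6:67037428-67037457, minus strand, decamer starting 40 bases upstream: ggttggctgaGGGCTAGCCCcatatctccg
Mdm2, chr10:117710910-117710969, minus strand, decamer starting 186 bases upstream: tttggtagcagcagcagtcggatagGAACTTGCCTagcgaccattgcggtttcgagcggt
Trp53, chr11:69580259-69580318, plus strand, decamer starting 75 bases upstream: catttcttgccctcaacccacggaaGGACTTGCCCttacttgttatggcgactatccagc
Cdkn1a, chr17:29090892-29090951, plus strand, decamers starting 73 and 51 bases upstream: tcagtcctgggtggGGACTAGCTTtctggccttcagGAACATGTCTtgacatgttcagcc
The windows of Mdm4, Phlda3 and Sesn2 did not hold these letters. The lines of the list were thus picked by the motif, and Sesn2 and Zmat3, which also rose, are not among them. A match describes the letters only, and p53 binding sites often lie outside such windows.

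Levels are in FPKM, the fragments assigned to a locus per kilobase of its exons and scaled to the size of the library, so genes can be compared per length. Under HG the most abundant transcript of the list was that of Trp53 at 51.7 ± 0.0524 FPKM (SD, n = 2). Ccng1 (22.4 ± 1.24) and Mdm2 (21.8 ± 2.66) came next and did not differ beyond their spread. Zmat3 (10.5), Trp53inp1 (10.0), Sesn2 (9.95), Phlda3 (9.77) and Perp (9.14) followed close together, and the last pair had SDs of 6.33 and 9.07 FPKM that covered the whole of this range. Mdm4 (4.94 ± 0.633) and Gadd45a (4.72 ± 0.0113) were the lowest and again did not differ beyond their spread. None of the 10 genes was listed at 0 in any library.

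**Figure D1:**
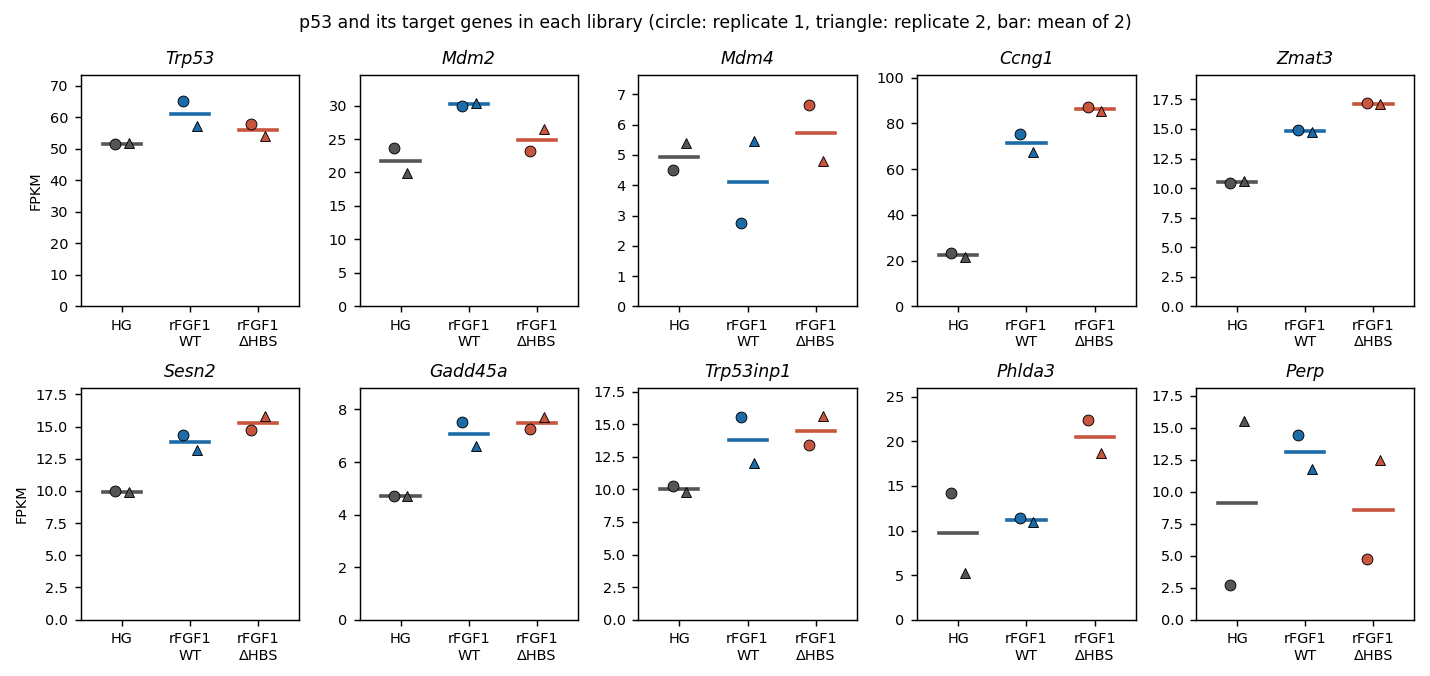
FPKM of the 10 genes in each of the 6 libraries, with the y axis of each panel from 0, 1 circle or triangle per library and a bar at the mean of each group of 2. Both groups with FGF1 lie above both HG libraries for Ccng1, Zmat3, Sesn2 and Gadd45a, while the libraries of Perp, Mdm4 and Phlda3 spread widely within a group.

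The first question was whether pretreatment with either protein changed these transcripts under HG. Ccng1, Zmat3, Sesn2 and Gadd45a rose with both proteins, Ccng1 more than 3-fold and the others by less than 2-fold, whereas the changes of Trp53, Mdm2, Mdm4, Trp53inp1, Phlda3 and Perp did not pass the test. Log2(FPKM + 1) was tested with limma over the 10562 loci whose FPKM averaged 1 or more, and a gene passed with a Benjamini-Hochberg adjusted p under 0.05. With rFGF1WT 4 of the 10 genes passed, all of them higher, where 6.19% of all loci passed, 3.26% as higher and 2.94% as lower. With rFGF1ΔHBS the same 4 genes passed, where 6.26% of all loci passed, 3.37% as higher and 2.89% as lower. The median log2 fold change of the 10 genes was 0.44 with rFGF1WT and 0.53 with rFGF1ΔHBS, against a median of -0.04 over all loci in both comparisons. For 7 of the 10 genes both rFGF1WT libraries lay above both HG libraries, as they did for 24.1% of all loci, and with rFGF1ΔHBS these numbers were 7 of 10 and 24.4%. None of the 10 had both libraries with a protein below both HG libraries, as 34.1% of all loci did with rFGF1WT and 32.9% with rFGF1ΔHBS. The genes were chosen with earlier results of these data known, so these shares describe the genes and do not test for an excess. The HG libraries are shared by the comparisons, whose values are therefore set side by side and are not independent evidence. In whole cultures, more RNA per cell and a larger share of cells with the transcript cannot be told apart.

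Trp53 lies on chromosome 11 of GRCm38 from 69580359 to 69591873. It had 51.7 FPKM in both HG libraries, 65.1 and 57.4 with rFGF1WT, and 58.1 and 54.2 with rFGF1ΔHBS. All 4 libraries with FGF1 were above the HG libraries, but the change was small. The log2 fold change was 0.24 (standard error 0.08, adjusted p = 0.17) with rFGF1WT and 0.12 (standard error 0.08, adjusted p = 0.435) with rFGF1ΔHBS, and the 95% confidence intervals of 0.02 to 0.45 and -0.10 to 0.33 did not reach a 2-fold change.

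Mdm2, on chromosome 10 from 117688875 to 117710758, encodes the ligase that marks p53 for degradation. It had 23.7 and 19.9 FPKM under HG, 29.97 and 30.4 with rFGF1WT, and 23.2 and 26.5 with rFGF1ΔHBS. The rFGF1WT libraries were thus above HG, while those with rFGF1ΔHBS overlapped HG. Neither change of Mdm2 passed, at 0.46 (standard error 0.11, adjusted p = 0.0992) and 0.18 (standard error 0.11, adjusted p = 0.385). Mdm4, on chromosome 1 from 132959484 to 133030561, encodes a relative of Mdm2 that binds p53 and masks its activation domain. Its FPKM were 4.49 and 5.38 under HG, 2.76 and 5.46 with rFGF1WT, and 6.64 and 4.81 with rFGF1ΔHBS, and the groups overlapped. Log2 fold changes of Mdm4 were -0.26 (adjusted p = 0.644) and 0.17 (adjusted p = 0.775), and the first became 0.13 without rFGF1WT replicate 1.

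Ccng1, on chromosome 11 from 40748552 to 40755311, encodes cyclin G1, which recruits protein phosphatase 2A to Mdm2. It had 23.2 and 21.5 FPKM under HG, 75.3 and 67.4 with rFGF1WT, and 87.2 and 85.6 with rFGF1ΔHBS. The 3 groups did not overlap, and the gap to HG was far larger than the spread within a group. The mean FPKM was 3.19 times that of HG with rFGF1WT, or 1.63 on the log2 scale (standard error 0.08, adjusted p = 0.00488), and 3.86 times with rFGF1ΔHBS, or 1.90 (standard error 0.08, adjusted p = 0.00392). Among all 10562 loci Ccng1 ranked 30 by p and 76 by increase with rFGF1WT, and 18 and 55 with rFGF1ΔHBS. It was the only gene of the list past a 2-fold limit as well, which 1.01% and 0.899% of all loci passed.

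Zmat3, on chromosome 3 from 32334792 to 32366014, encodes a zinc finger protein that binds RNA. It had 10.4 and 10.6 FPKM under HG, 14.9 and 14.7 with rFGF1WT, and 17.2 and 17.1 with rFGF1ΔHBS, so that the 3 groups stood apart with very little spread in each. On the log2 scale Zmat3 rose by 0.46 (standard error 0.05, adjusted p = 0.0208) with rFGF1WT and by 0.65 (standard error 0.05, adjusted p = 0.014) with rFGF1ΔHBS.

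Sesn2, on chromosome 4 from 132492032 to 132510501, encodes sestrin 2, a leucine sensor that restrains mTORC1 and takes part in antioxidant defence. It had 10.0 and 9.90 FPKM under HG, 14.4 and 13.2 with rFGF1WT, and 14.8 and 15.8 with rFGF1ΔHBS. Every library with FGF1 was above HG. The log2 fold changes of 0.43 (standard error 0.07) and 0.57 (standard error 0.07) had adjusted p of 0.0458 and 0.0261. On the same strand, Gm12981 overlaps Sesn2 in the annotation.

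Gadd45a, on chromosome 6 from 67035096 to 67037457, encodes a small stress protein that binds PCNA and acts in MAP kinase signalling. It had 4.73 and 4.71 FPKM under HG, 7.51 and 6.63 with rFGF1WT, and 7.26 and 7.73 with rFGF1ΔHBS. The 2 groups with FGF1 overlapped each other and both lay above HG, with log2 fold changes of 0.49 (standard error 0.08, adjusted p = 0.0461) and 0.57 (standard error 0.08, adjusted p = 0.0345). A gene on the opposite strand, E230016M11Rik, overlaps Gadd45a in the annotation, and the sources used here do not say whether strand was counted.

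Leaving out any single library ended 3 of the 4 calls with rFGF1WT, since only Ccng1 still passed in each of these 6 fits. With rFGF1ΔHBS, Ccng1 passed in all 6, Zmat3 in the 2 fits without an rFGF1WT library, and Sesn2 and Gadd45a in none, with adjusted p of 0.0572 to 0.109 and 0.0590 to 0.134. The direction of these 4 genes held in each fit.

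Trp53inp1, Phlda3 and Perp are targets whose changes did not pass. Trp53inp1, on chromosome 4 from 11156431 to 11174379, encodes a nuclear protein that promotes p53 phosphorylation and autophagy. It had 10.2 and 9.80 FPKM under HG, 15.6 and 12.0 with rFGF1WT, and 13.4 and 15.6 with rFGF1ΔHBS. Both groups with FGF1 were above HG, but their own spread was wide, and the log2 fold changes of 0.41 and 0.49 (standard error 0.15 for both) had adjusted p of 0.188 and 0.143.

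Phlda3, on chromosome 1 from 135766119 to 135769136, encodes a PH-domain protein that competes with AKT for membrane lipids. It had 14.2 and 5.29 FPKM under HG, 11.4 and 10.99 with rFGF1WT, and 22.4 and 18.7 with rFGF1ΔHBS. The HG libraries lay on both sides of the rFGF1WT libraries, while both rFGF1ΔHBS libraries were the highest of the 6. The log2 fold change with rFGF1ΔHBS was 1.13 (standard error 0.44, adjusted p = 0.218), and it was 1.77 without HG replicate 1 and 0.49 without HG replicate 2.

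Perp, on chromosome 10 from 18845020 to 18857073, encodes a membrane protein of desmosomes that also takes part in apoptosis. Its FPKM were 2.72 and 15.6 under HG, 14.4 and 11.8 with rFGF1WT, and 4.72 and 12.5 with rFGF1ΔHBS. The lowest values were those of replicate 1 of HG and of rFGF1ΔHBS. Groups overlapped, and the interval of the change with rFGF1WT ran from -1.44 to 3.11 on the log2 scale, which includes 2-fold in either direction. Without HG replicate 1 the log2 fold changes of Perp were -0.24 and -0.91, against 0.84 and 0.16 with all libraries.

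**Figure D2:**
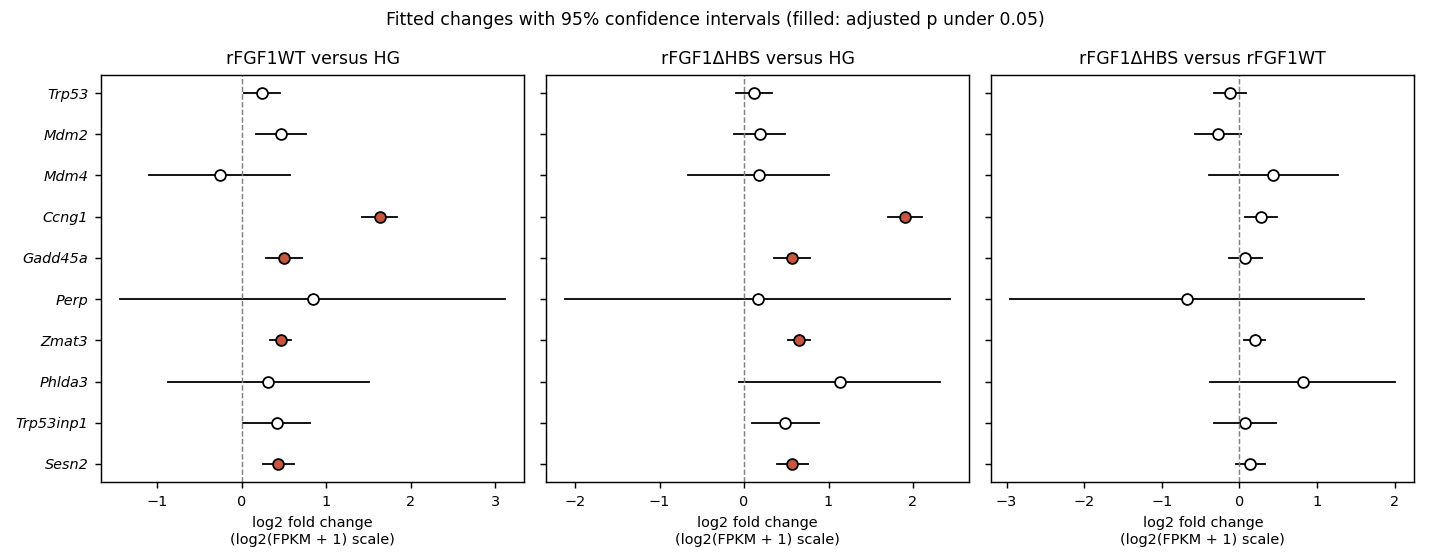
Log2 fold changes of the 10 genes on the log2(FPKM + 1) scale, with lines for the 95% confidence intervals of limma and filled points for an adjusted p under 0.05. Ccng1, Zmat3, Sesn2 and Gadd45a are filled against HG with both proteins, and no point is filled between the proteins.

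The second question was whether the mutant, at the same dose and time, differed from the wild-type protein. Between rFGF1ΔHBS and rFGF1WT none of the 10 genes passed limma's test, where 0.549% of all loci did (0.294% higher, 0.256% lower and 0.35% also past 2-fold), and 2 had an unadjusted p under 0.05, namely Ccng1 and Zmat3, as 4.87% of all loci did. The log2 difference of Ccng1 was 0.27 (95% confidence interval 0.07 to 0.48, adjusted p = 0.807) and that of Zmat3 was 0.19 (0.07 to 0.32, adjusted p = 0.668), both higher with rFGF1ΔHBS. Intervals were -0.33 to 0.09 for Trp53, -0.57 to 0.02 for Mdm2, -0.14 to 0.29 for Gadd45a and -0.05 to 0.33 for Sesn2, so that differences of 2-fold lay outside them. Those of Phlda3 (-0.37 to 2.01), Perp (-2.95 to 1.60) and Mdm4 (-0.40 to 1.27) were too wide for that, and that of Trp53inp1 was -0.32 to 0.47. Both rFGF1ΔHBS libraries lay above both rFGF1WT libraries for Ccng1, Zmat3, Phlda3 and Sesn2, 4 of 10 genes against 18.4% of all loci, and below them for Mdm2, 1 of 10 against 16.1%.

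Other genes of the pathway were taken from 5 lists by role, which together held 76 genes outside the 10, of which 67 were tested. With rFGF1WT 6 of the 67 rose and 1 fell, and with rFGF1ΔHBS 10 rose and 2 fell, with median log2 fold changes of 0.025 and 0.06. These were 10.4% and 17.9% of the 67, beside 6.19% and 6.26% of all loci. The lists too were chosen with earlier results of these data known, so their shares are descriptive only.

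Of 8 tested targets of cell cycle arrest, 3 rose with rFGF1WT and 4 with rFGF1ΔHBS, where 3.26% and 3.37% of all loci rose. None passed as lower, and the median log2 fold changes were 0.32 and 0.56. The changes ranged from -0.19 to 1.34 with rFGF1WT, with 7 of the 8 above 0. With rFGF1ΔHBS they ranged from -1.01 to 1.23, with 5 of the 8 above 0. Plk3, which encodes a polo-like kinase of the stress response, had 4.22 and 4.43 FPKM under HG, 12.4 and 12.6 with rFGF1WT, and 11.4 and 11.5 with rFGF1ΔHBS. Plk3 thus rose by 1.34 on the log2 scale with rFGF1WT (adjusted p = 0.00345) and by 1.23 with rFGF1ΔHBS (adjusted p = 0.00464), and passed in all 16 refits with each protein. Plk2, a related kinase, rose from 39.4 ± 3.13 FPKM (SD, n = 2) to 72.4 ± 2.56 and 70.5 ± 1.46, with adjusted p of 0.0144 and 0.0166. Gtse1, which encodes a microtubule protein of G2 and S phase that binds p53, rose by 0.51 (adjusted p = 0.0294) and 0.58 (adjusted p = 0.0235), and Psrc1, another microtubule protein, by 0.55 with rFGF1ΔHBS (adjusted p = 0.0462) against a change of 0.36 with rFGF1WT (adjusted p = 0.103).

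Cdkn1a encodes p21, the inhibitor of cyclin-dependent kinases. Its FPKM were 31.2 and 10.2 under HG, 19.97 and 20.9 with rFGF1WT, and 58.3 and 22.8 with rFGF1ΔHBS. The HG libraries enclosed the rFGF1WT libraries, and replicate 1 was the higher library under HG and with rFGF1ΔHBS. Log2 fold changes of Cdkn1a were 0.17 (standard error 0.68, adjusted p = 0.904) and 0.98 (standard error 0.68, adjusted p = 0.441), and the interval of the first, from -1.66 to 2.01, includes 2-fold in either direction. Without 1 library the change of Cdkn1a ranged from -0.59 to 0.93 with rFGF1WT and from 0.22 to 1.74 with rFGF1ΔHBS, the ends of both ranges coming without HG replicate 2 and without HG replicate 1.

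Of 14 tested targets of apoptosis, 1 rose with rFGF1WT and 3 with rFGF1ΔHBS, and none fell. The single call with rFGF1WT, 7.14% of the list, was near the 6.19% of all loci, while 21.4% passed with rFGF1ΔHBS beside 6.26% of all loci. Pidd1, which encodes the scaffold of the PIDDosome, had 6.71 and 7.07 FPKM under HG, 9.62 and 9.23 with rFGF1WT, and 10.4 and 10.5 with rFGF1ΔHBS, with adjusted p of 0.0369 and 0.0214. Eda2r, a receptor of the TNF receptor family, had 4.301 and 3.88 FPKM under HG and 8.97 and 9.23 with rFGF1ΔHBS, a change of 0.99 on the log2 scale (adjusted p = 0.0461), and 8.26 and 5.89 with rFGF1WT (0.65, adjusted p = 0.1). The locus of Bax, a pore-forming protein of mitochondria, also carries the names Gm45808 and Dhdh, and rose from 3.99 ± 0.0016 FPKM to 5.47 ± 0.0354 (SD, n = 2) with rFGF1ΔHBS (adjusted p = 0.0464) against 5.03 ± 0.198 with rFGF1WT (adjusted p = 0.0848). Bbc3, which encodes PUMA, changed by 0.16 (adjusted p = 0.505) and 0.30 (adjusted p = 0.253), and Pmaip1, which encodes NOXA, by -0.13 (adjusted p = 0.756) and -0.07 (adjusted p = 0.89).

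Of 19 tested targets of repair and metabolism, 1 rose with rFGF1WT, and 2 rose and 1 fell with rFGF1ΔHBS. These were 5.26% and 15.8% of the list, and the first was near the 6.19% of all loci that passed. Ddit4, which encodes the mTORC1 inhibitor REDD1, had 19.5 and 16.8 FPKM under HG, 29.5 and 27.3 with rFGF1WT, and 29.0 and 32.2 with rFGF1ΔHBS, with adjusted p of 0.048 and 0.0348. Ephx1, the microsomal epoxide hydrolase, whose locus also names Gm36961, rose by 0.32 with rFGF1ΔHBS (adjusted p = 0.0413), and Pltp, a phospholipid transfer protein, fell by 0.40 (adjusted p = 0.0483). With rFGF1WT these changes were 0.21 (adjusted p = 0.0955) and -0.36 (adjusted p = 0.0606).

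Of the targets outside the 10 genes that passed, only Plk3 passed in each fit without 1 library. Leaving out any single library ended the calls of Gtse1 (adjusted p of 0.0552 to 0.123 and 0.0639 to 0.097), Pidd1 (0.0859 to 0.135 and 0.0579 to 0.0937) and Ddit4 (0.0902 to 0.166 and 0.0793 to 0.118) with both proteins. It also ended those of Psrc1 (0.079 to 0.15), Bax (0.0875 to 0.161), Ephx1 (0.087 to 0.136) and Pltp (0.0807 to 0.169) with rFGF1ΔHBS. Plk2 passed with rFGF1WT without either HG library, and with rFGF1ΔHBS without HG replicate 1 alone, with adjusted p of up to 0.0652 and 0.0769 in the other fits. Eda2r passed with rFGF1ΔHBS without either rFGF1WT library, and its adjusted p was up to 0.16 in the other fits.

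Of 20 tested regulators of p53, none passed limma's test against HG with rFGF1WT or rFGF1ΔHBS, and 2 and 5 had an unadjusted p under 0.05, as 24.8% and 24.9% of all loci did. Their median log2 fold change was -0.06 with rFGF1WT and -0.07 with rFGF1ΔHBS, and the relatives Trp63 and Trp73 stayed below the filter. Between the proteins, none of the 67 pathway genes reported here passed, beside 0.549% of all loci, and 1 had an unadjusted p under 0.05, beside 4.87%.

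**Figure D3:**
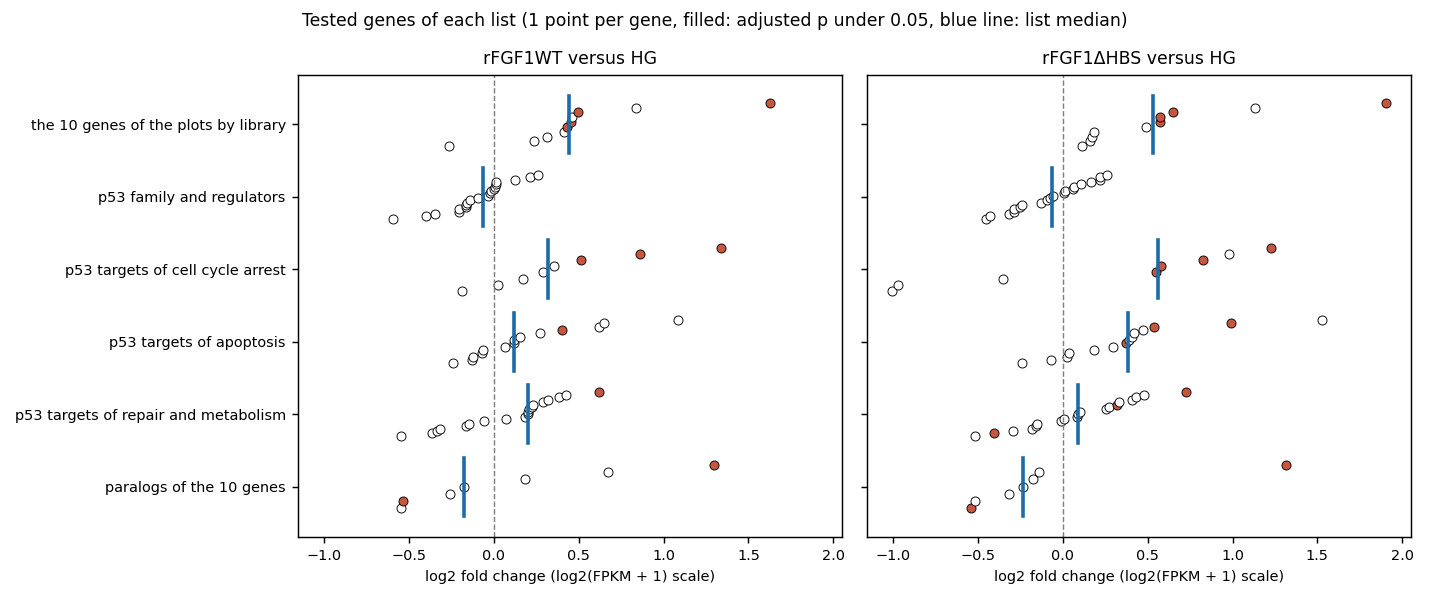
Log2 fold changes against HG of the tested genes of each list, on the log2(FPKM + 1) scale, with filled points for an adjusted p under 0.05 and a blue line at the median of the list. The medians of the 10 genes and of the target lists lie above 0, and those of the regulators and of the paralogs below it.

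Paralogs of the 10 genes were set beside them, 7 of which were tested. Ccng2, which encodes cyclin G2 and is a FOXO target, had 24.6 and 25.5 FPKM under HG, 16.9 and 17.0 with rFGF1WT, and 16.5 and 17.2 with rFGF1ΔHBS. It fell by 0.53 on the log2 scale (standard error 0.05, adjusted p = 0.0181) and by 0.54 (standard error 0.05, adjusted p = 0.0188), opposite to Ccng1. Leaving out any single library ended the calls of Ccng2, with adjusted p of 0.0518 to 0.0833 and 0.0549 to 0.0744. The FPKM ratio of Ccng1 to Ccng2 was therefore 0.945 and 0.842 in the HG libraries, 4.45 and 3.96 with rFGF1WT, and 5.27 and 4.96 with rFGF1ΔHBS. Phlda1, an ERK-responsive relative of Phlda3, rose from 14.7 and 18.0 FPKM to 40.1 and 42.8 with rFGF1WT and 40.3 and 43.7 with rFGF1ΔHBS (adjusted p = 0.0159 and 0.0164). Phlda1 still passed without either HG library and did not without any of the 4 others, with adjusted p of up to 0.0708 and 0.0764.

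The other tested paralogs did not pass against HG. Sesn1 had 19.0 and 12.4 FPKM under HG and between 8.20 and 12.98 in the 4 libraries with FGF1, with log2 fold changes of -0.55 (adjusted p = 0.4) and -0.52 (adjusted p = 0.423), and replicate 1 was the higher library in each group. Sesn3 changed by -0.18 (adjusted p = 0.156) and -0.14 (adjusted p = 0.229), and all 4 of its libraries with FGF1 were below HG. Gadd45b changed by 0.18 (adjusted p = 0.63) and -0.32 (adjusted p = 0.423), and Gadd45g by -0.26 (adjusted p = 0.725) and -0.24 (adjusted p = 0.755), with overlapping groups. Trp53inp2 had 3.32 and 10.6 FPKM with rFGF1WT against 4.01 and 2.93 under HG, a change of 0.68 (adjusted p = 0.468) that was -0.039 without rFGF1WT replicate 2.

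**Figure D4:**
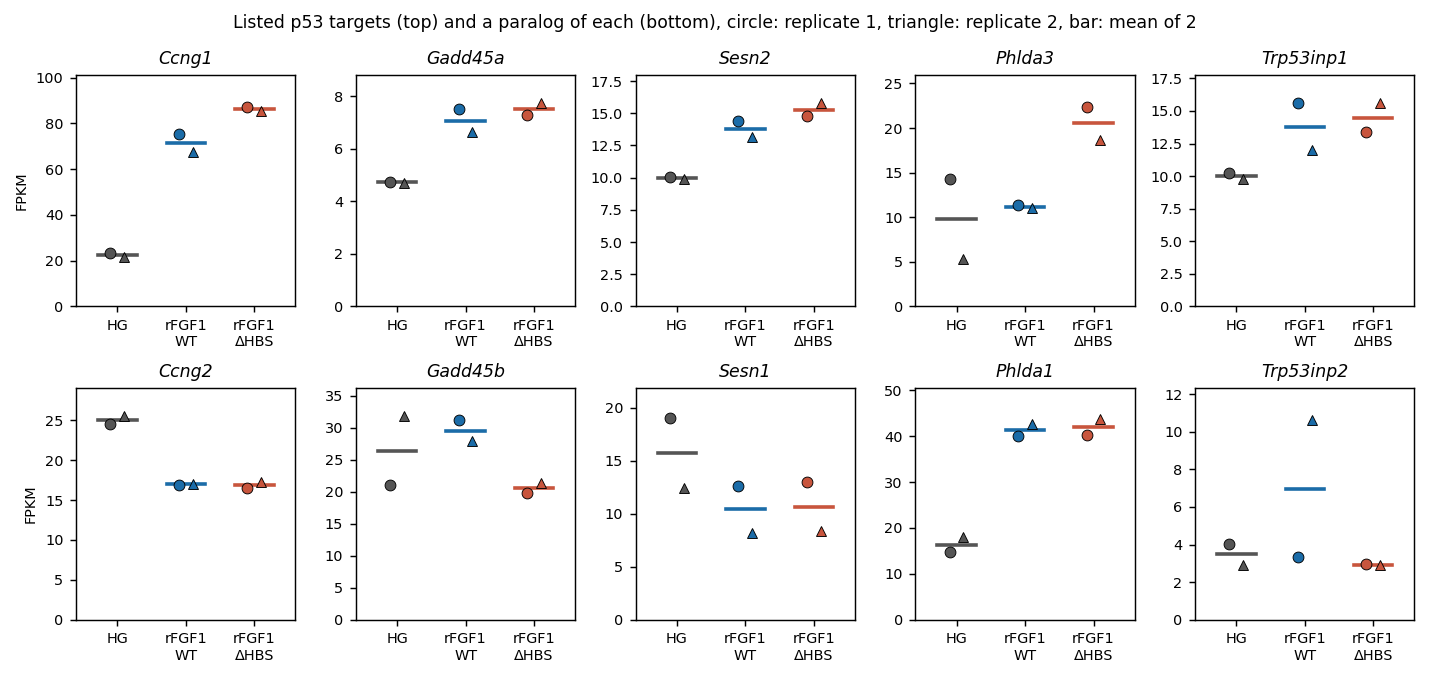
FPKM in each library of 5 of the target genes (top) and of 1 paralog of each (bottom), with the y axis of each panel from 0 and a bar at the mean of each group of 2. Ccng1 is higher and Ccng2 lower in all 4 libraries with FGF1 than in both HG libraries. Sesn1, in the bottom row, is also among the listed targets of repair and metabolism.

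Across the 6 libraries, the named loci above 0 throughout whose log2(FPKM + 1) was most like that of Trp53 were Gpatch4, Mrpl51 and Psip1 (Pearson's r 0.993, 0.977 and 0.9753). For Ccng1 they were Mthfd1, Farsb and Gstm2 (1.00, 0.999 and 0.998). These describe the same 6 libraries, and 0.872% of 10211 loci had an r above 0.9 with Trp53 and 7.82% with Ccng1.

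FPKM summed to between 179594 and 185168 per library. Read totals are not given. Low values lay on common steps that put the FPKM worth of 1 fragment between 0.987 and 1.03 times that of HG replicate 1. Only ratios near 1 were searched, so these steps do not show that depths were alike. Pearson's r across the tested loci, which are not independent of each other, was 0.916 to 0.923 between replicates and 0.895 to 0.924 between groups. Of 12 podocyte markers 11 were in the table and 6 had a mean FPKM of at least 1, including Synpo and Podxl, whereas Wt1, Lmx1b and Ptpro were under 0.1. Summed podocyte markers were 180 to 185 FPKM under HG and 213 to 234 with FGF1, and most of each sum was Actn4 and Cd2ap. Kirrel was part of the higher sums, with means of 16.3 FPKM under HG, 40.2 with rFGF1WT and 31.0 with rFGF1ΔHBS. Synpo and Podxl went the other way without passing the test, from means of 9.91 and 17.1 FPKM under HG to 4.73 and 15.6 with rFGF1WT and 5.83 and 15.3 with rFGF1ΔHBS. Markers of endothelium summed to at most 0.167 FPKM in any library, those of proximal tubule to 62.1 to 73.8 under HG and 40.8 to 50.1 with FGF1, mostly Lrp2 and Aqp1, and those of mesangium to 34.2 to 35.0 and 29.3 to 30.6. The macrophage list summed to 60.9 to 62.8 and 66.8 to 71.1 FPKM, mostly a locus that merges Cd68 with Eif4a1, with Ptprc and Adgre1 near 0. Csf1r, the other macrophage marker above 1 FPKM, fell from a mean of 10.1 FPKM to 3.44 with rFGF1WT (adjusted p = 0.0114) and 3.85 with rFGF1ΔHBS (adjusted p = 0.014). The part of these markers in the changes of the p53 genes was not tested.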

How the data were processed

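RNA-Seq was analysed in 6 libraries of MPCs. The values are FPKM per locus as deposited by the authors, with 1 column for each paired-end poly(A) library. The submitters' processing notes name Bowtie 0.12.2, HISAT2 2.0 and StringTie 1.3.0 and the build mm8, and edgeR is named in the study's methods for FPKM. The annotation is not given in the sources used here. How fragments shared by overlapping genes or paralogs were assigned is not visible in FPKM. Other annotated genes overlap Mdm4, Plk3, Pltp, Phlda1, Cdkn1a and Sesn1, as well as Gadd45a, Sesn2, Bax and Ephx1. The build of the notes was not used for positions, which are from GENCODE M21 (GRCm38), where the Ensembl transcripts of the table were found, and promoters from RefSeq (GRCm38.p6).

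log2(FPKM + 1) of the 10562 loci averaging 1 FPKM or more was fitted with limma 3.58.1 (lmFit, contrasts and eBayes with a trend) in R 4.3.3, in a single fit of 6 libraries with 3 residual degrees of freedom. The threshold was a Benjamini-Hochberg adjusted p of 0.05 over all loci, and the 2-fold limit of the study was an alternative. A log2(FPKM + 1) fold change understates the change of low genes. No exact permutation test was run, since 2 libraries against 2 allow no p under 0.333. The script was tested on simulated data with 200 of 10562 loci changed. There 8.96% of log2 changes of 0.5 passed, 50.7% of those of 1.0 and 81.8% of those of 2.0. A change near 0.5 that did not pass is thus not shown to be absent. In the real data 654 loci passed with rFGF1WT, so the simulated shares need not hold there.

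The 10 genes and the lists were chosen with earlier results of these data known. Some listed genes are not reported here and are left out of the list counts. Genes named are the 10, list members that passed in any comparison, 11 listed examples (Cdkn1a, Bax, Bbc3, Pmaip1, Ccng2, Sesn1, Sesn3, Gadd45b, Gadd45g, Phlda1 and Trp53inp2), the 3 loci most like Trp53 and Ccng1, and marker examples. Alternatives were a pseudocount of 0.1, no filter or a mean FPKM of at least 5, quantile normalization, median-ratio scaling, restriction to loci never at 0, a replicate block, robust empirical Bayes, a fit of only the 4 libraries at issue, loci of a symbol summed, the 2-fold limit, and fits without each library in turn. Plots used Python 3.11.15 and matplotlib 3.10.9.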

Additional observations from a re-analysis of the deposited data

How the results depend on the processing

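The number of the 10 p53 genes that passed against HG was 4 with each protein. It fell to 1 and 1 with the 2-fold limit, to 1 and 2 in the fits of only the 4 libraries compared, and to 2 and 3 without the filter on low FPKM, where Gadd45a no longer passed with rFGF1ΔHBS. Fits that left out 1 library gave 1 with rFGF1WT and 1 to 2 with rFGF1ΔHBS, and Ccng1 passed in every refit, with adjusted p of 0.00436 to 0.0307 and 0.00333 to 0.0305. Between the proteins none passed in any refit. Of all loci, 654, 661 and 58 passed, against 41 to 668, 39 to 700 and 6 to 107 over the alternatives, and of the other pathway genes 7, 12 and 0, against 1 to 8, 1 to 13 and 0 to 1. Fewer libraries leave fewer residual degrees of freedom. The replicate block left 1 of the 10 genes with each protein, Ccng1, and libraries with the same number did not deviate together (r of -0.0212, 0.098 and -0.0467), so the numbers were not taken as pairs.

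Directions turned only for genes whose change did not pass, in fits without 1 library. Against HG with rFGF1WT these fits gave log2 fold changes of -0.65 to 0.13 for Mdm4, -0.24 to 1.91 for Perp, -0.32 to 0.95 for Phlda3, -0.59 to 0.93 for Cdkn1a, -0.0022 to 0.31 for Bbc3, -0.42 to 0.16 for Pmaip1, -0.10 to 0.47 for Gadd45b, -0.67 to 0.15 for Gadd45g and -0.039 to 1.39 for Trp53inp2. With rFGF1ΔHBS they gave -0.025 to 0.37 for Mdm4, -0.91 to 1.24 for Perp, -0.17 to 0.039 for Pmaip1, -0.62 to 0.15 for Gadd45g and -0.35 to 0.00022 for Trp53inp2. Between the proteins they gave -0.0029 to 0.15 for Gadd45a and -0.10 to 0.25 for Trp53inp1. The cause of these shifts was not tested.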
